A study of Mus musculus with 16 samples.

Results

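Loss of Nampt from the adipocytes of young mice was examined in subcutaneous white fat, with 6 of the 16 libraries of the series, 3 from adipocyte-specific Nampt knockouts (ANKO) and 3 from flox/flox controls, chosen by their labels. The young mice were 2 months old. ANKO mice carried an adiponectin-Cre transgene and floxed Nampt on a C57BL/6J background, and the controls carried floxed Nampt and are labelled as controls. All lived at room temperature on regular chow and, going by the title of the series, were female. The other 10 libraries, 5 old ANKO and 5 old control from mice of 22 to 27 months, entered the same model and are used here where the 2 ages are set side by side.

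Adiponectin-Cre acts in adipocytes, while RNA was taken from the whole depot, so Nampt transcripts of the other cells of fat stay in every library. The sources used here do not give which exons were floxed or if the libraries are from separate animals. P-values therefore measure only the spread between libraries, which may be technical. In the main fit this spread was estimated over all 16 libraries, so it can differ from the spread within the young groups. In bulk tissue, fewer cells of a type and less RNA per cell cannot be told apart. Adipocyte markers were abundant in all 6 libraries: Adipoq, the hormone adiponectin, lay between 264 and 1024 CPM, where CPM are counts scaled to a common library size after correcting each library for its composition. Transcripts of adipocytes were therefore present in every sample, and this value alone does not show which kind of fat it was.

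NAMPT makes nicotinamide mononucleotide from nicotinamide, the slow step by which most tissues recover NAD, the coenzyme of fuel oxidation and the substrate of sirtuins and PARPs. Cells under mitochondrial or nutrient stress can switch on the integrated stress response, in which phosphorylated eIF2 favours translation of ATF4, and ATF4 with its partners induces genes of amino acid supply and the hormones GDF15 and FGF21. Oxidative and electrophilic stress frees NRF2 from KEAP1, and NRF2 induces genes of glutathione synthesis, iron storage and detoxification. Mature white adipocytes store triglyceride, release it under beta-adrenergic control and break down branched-chain amino acids.

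The 6 young libraries held 19747738 to 23858605 reads. Mitochondrial genes took 2.64% to 3.65% of reads, and Gm26917 was the most abundant gene in all 6. Markers of tissues next to the depot varied between libraries more than between groups. The 17 skeletal muscle markers summed to 12372, 3661 and 19425 CPM in controls 1, 2 and 3 and to 36851, 6419 and 328 CPM in ANKO 1, 2 and 3. The 20 mammary epithelium markers summed to 617 to 3502 CPM in control fat and 1689.8 to 2666 CPM in ANKO libraries, lowest in control 3. The 20 keratinocyte markers reached 448 CPM in ANKO 2 against 103 to 283 CPM in the other libraries. The part of these tissues in the results below was not tested.

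Of 21206 genes tested, 67 (0.316%) passed an adjusted p of 0.05 in edgeR's quasi-likelihood test. They were 35 higher genes (0.165%) and 32 lower genes (0.151%), of which 29 and 28 differed by at least 2-fold. Without adjustment, 768 genes (3.62%) were higher and 759 (3.58%) lower at p under 0.05. In 1932 genes (9.11%) all ANKO libraries lay above all controls, and in 1997 (9.42%) all lay below. Counts of called and separate members in the lists below are to be read against these shares of all genes. The median log2 fold change over all genes was 0.01. Other fits called more genes: 0.488% higher and 1.10% lower with the young libraries alone, and 0.712% higher and 0.924% lower with DESeq2. Of 355 genes that the naming rule covers and that missed the threshold, 50 passed with the young libraries alone, 51 in DESeq2 and 36 in both. Many of the calls were lost when 1 library was left out, whichever library it was. Without controls 1, 2 and 3, 32, 18 and 10 of the 67 stayed called. Without ANKO 1, 2 and 3, 38, 10 and 14 stayed called. Only 8 were kept when each of the 6 young libraries was left out in turn (Tsku, Ephx1, Acot11, Abcc4, Maoa, Cbr3, Zfp949 and 9630013D21Rik). The sign of all 67 stayed the same in each of these fits.

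**Figure D1:**
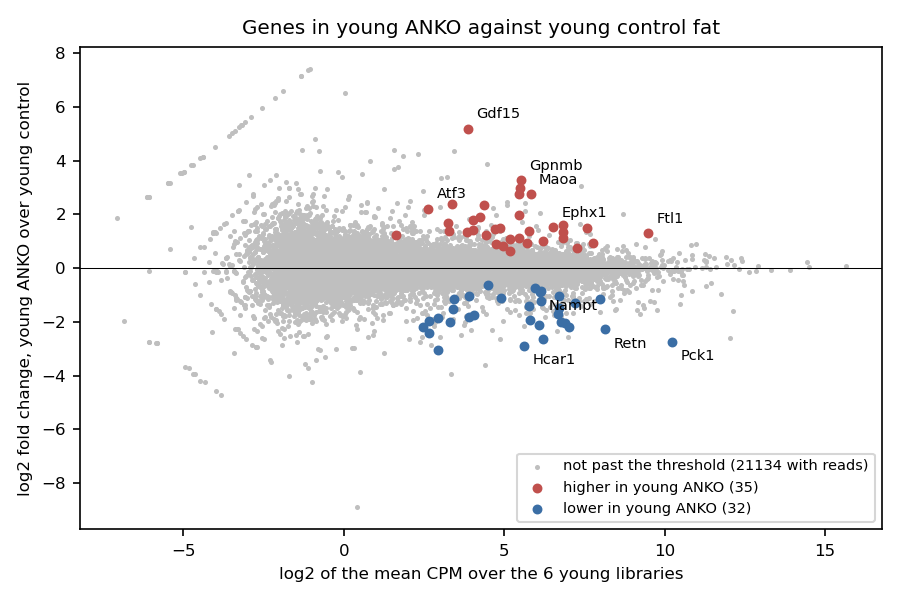
Log2 fold change of young ANKO over young control (vertical axis) against the log2 of the mean CPM over the 6 young libraries (horizontal axis), 1 point per gene. The 35 genes past the threshold and higher in ANKO fat are red and the 32 lower are blue. Gdf15 is the highest of the called genes at 5.19, and Nampt lies at -0.85.

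The targeted gene was lower in every ANKO library. Nampt (chromosome 12, 32819545 to 32853349, plus strand) was 86.3, 95.4 and 89.0 CPM in the controls and 49.8, 51.7 and 48.7 CPM in the ANKO libraries, so the groups were separate and the libraries of each group lay close together. The log2 fold change was -0.85 ± 0.17 (SE; edgeR adjusted p = 0.0429), and about 50.1 CPM remained in the tissue. The call was lost without any 1 of the 6 libraries, with adjusted p of 0.0927, 0.194 and 0.257 without controls 1, 2 and 3, and of 0.136, 0.189 and 0.184 without ANKO 1, 2 and 3.

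Of 19 measured genes of NAD synthesis, Nampt was called lower and none higher, and the list's median was -0.18. All ANKO libraries lay below all controls in 5 of the 19. Nnmt, which methylates nicotinamide and so removes it from the salvage route, was 34.8, 43.8 and 42.7 CPM in control fat and 7.97, 8.03 and 8.61 CPM in ANKO libraries. These groups were far apart, but the difference of -2.30 ± 0.54 missed the threshold (edgeR adjusted p = 0.0987). Nnmt passed with the young libraries alone (0.000866), where its SE was 0.13, and in DESeq2 (0.00117). Nmnat3, a mitochondrial enzyme that turns nicotinamide mononucleotide into NAD, was 15.3 to 19.6 CPM in control fat and 10.4 to 13.5 CPM in ANKO libraries (-0.58 ± 0.16, adjusted p = 0.167). Nmnat1, the nuclear form, had overlapping groups at -0.15 ± 0.22, and so did Slc25a51, which carries NAD into mitochondria, at 0.30 ± 0.24.

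None of the 19 genes of NAD-consuming enzymes passed the test, and none had an unadjusted p under 0.05. Their median was -0.03. Sirt1, the nuclear deacetylase, was 27.2 to 31.1 CPM in control fat and 29.1 to 31.6 CPM in ANKO libraries. Sirt2 and Sirt3, the cytoplasmic and mitochondrial sirtuins, had log2 fold changes of 0.05 ± 0.13 and 0.03 ± 0.21.

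Regulators of the integrated stress response are described next, with promoter sequences of the members that carry the motif their factors are known to bind. The windows span 250 bases before to 50 bases after each start in RefSeq (GRCm38.p6), of which 13333 of the tested genes had at least 1. The composite core TGATGNAA, read by ATF4 with CEBP partners, was searched on both strands and was found in 2.51% of the 16871 windows of tested genes. Among the stress regulators it was in 6 of 24 windows, those of Atf3, Chac1, Jdp2, Nupr1, Trib3 and Vldlr, a share that was not tested. Of these members Chac1, Jdp2, Nupr1 and Vldlr were not called in the young comparison. In windows of genes called higher the core was in 2 of 41 (4.88%), and of genes called lower in 1 of 38 (2.63%). The core was also in a window of Fgf21 and of Slc7a11. Sequences of 4 genes are shown because these rose or stood apart between the groups, with the match in capitals, and in Ppp1r15a the capitals mark the full CRE, TGACGTCA, found in 2.64% of windows of tested genes. Each runs 5′ to 3′ on the gene's strand and ends at the base before the start.
Atf3, chr1:191183334-191183583, minus strand: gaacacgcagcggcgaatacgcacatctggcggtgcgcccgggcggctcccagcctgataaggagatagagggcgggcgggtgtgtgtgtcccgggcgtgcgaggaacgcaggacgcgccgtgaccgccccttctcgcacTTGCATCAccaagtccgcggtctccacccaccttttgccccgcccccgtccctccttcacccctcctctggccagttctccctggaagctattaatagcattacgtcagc
Fgf21, chr7:45615491-45615740, minus strand: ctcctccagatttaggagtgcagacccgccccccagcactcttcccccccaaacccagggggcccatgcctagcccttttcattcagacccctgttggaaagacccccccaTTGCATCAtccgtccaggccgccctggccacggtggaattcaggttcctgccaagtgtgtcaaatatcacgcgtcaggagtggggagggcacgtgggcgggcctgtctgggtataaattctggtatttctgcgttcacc
Slc7a11, chr3:50443614-50443863, minus strand: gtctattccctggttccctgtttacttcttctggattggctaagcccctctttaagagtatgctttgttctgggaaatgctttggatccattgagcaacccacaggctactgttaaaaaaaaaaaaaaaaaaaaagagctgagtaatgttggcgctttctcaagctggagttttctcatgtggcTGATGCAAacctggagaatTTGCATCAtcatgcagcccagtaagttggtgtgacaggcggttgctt
Ppp1r15a, chr7:45526269-45526518, minus strand: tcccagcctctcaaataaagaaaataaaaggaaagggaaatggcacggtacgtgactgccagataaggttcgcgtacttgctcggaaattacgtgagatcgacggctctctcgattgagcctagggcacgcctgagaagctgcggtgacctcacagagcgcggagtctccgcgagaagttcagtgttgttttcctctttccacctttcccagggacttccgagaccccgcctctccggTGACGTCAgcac
In Trib3 the match lay 15 bases after the start, shown with 10 bases on either side.
Trib3, chr2:152344029-152344056, minus strand: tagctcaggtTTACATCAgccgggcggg
The matches began 110 bases before the start in Atf3, 139 in Fgf21, 66 and 47 in Slc7a11, and 12 in Ppp1r15a. A match is a description of letters and shows no binding.

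Of 21 regulators of the integrated stress response, 4 rose and none fell, against 0.165% of all genes higher. In 7 of the 21 all ANKO libraries lay above all controls and in 1 below, against 9.11% and 9.42% of all genes. Fold changes were positive in 15 of the 21, against 51.2% of all genes, and the list's median was 0.08. Atf3, a stress-induced repressor of transcription, was 2.49, 2.48 and 1.63 CPM in control fat and 7.58, 11.4 and 11.6 CPM in ANKO libraries. Every ANKO library exceeded every control, and the gene rose by 2.21 ± 0.37 (edgeR adjusted p = 0.0208). Trib3, a pseudokinase that restrains ATF4 and insulin signalling, was 6.01, 13.2 and 4.85 CPM in control fat and 24.4, 31.9 and 32.7 CPM in ANKO libraries, a rise of 1.89 ± 0.33 (adjusted p = 0.0244). Control 2 stood above the other controls but below all ANKO libraries.

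Atf5, a factor of the mitochondrial stress response, rose from 93.0 to 104 CPM in the controls to 203, 365 and 270.2 CPM (1.49 ± 0.29, edgeR adjusted p = 0.0429). Its exons overlap those of Il4i1 and Nup62, so its counts are uncertain. Ppp1r15a, the phosphatase subunit that ends eIF2 phosphorylation, was 19.2, 19.8 and 17.9 CPM in control fat and 30.9, 38.5 and 35.2 CPM in ANKO libraries (0.88 ± 0.17, adjusted p = 0.0429); its exons overlap Tulp2. Atf4 itself was 75.2, 84.0 and 81.3 CPM against 109, 129 and 116 CPM, with no overlap, and missed the threshold (0.56 ± 0.12, adjusted p = 0.0572), but passed with the young libraries alone (0.0303) and in DESeq2 (0.00190). Ddit3, the pro-death factor CHOP, was 10.3 to 15.1 CPM against 22.5 to 26.9 CPM and missed it as well (0.91 ± 0.20, adjusted p = 0.0699; 0.0418 and 0.00330 in those fits). Without 1 library the calls of these 4 genes were lost in most fits: the highest adjusted p was 0.165 for Atf3, 0.159 for Trib3, 0.245 for Atf5 and 0.225 for Ppp1r15a, each without control 3. Atf3 and Atf5 kept their call without ANKO 1 only, Trib3 without control 2 and without ANKO 1, and Ppp1r15a in none.

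Of 9 measured stress-secreted factors, Gdf15 rose and none fell, against 0.165% of all genes higher. The list did not move one way: 3 members were separate above and 2 below, and 4 had a negative fold change. Its summed level was 558 to 688 CPM in control fat and 512 to 638 CPM in ANKO libraries, with overlap. Cxcl10, given further below, is a member with lower values in ANKO fat. Gdf15, a hormone that acts on the hindbrain (chromosome 8, 70629393 to 70632456), was 0.181, 0.517 and 1.63 CPM in control fat and 17.6, 32.3 and 34.8 CPM in ANKO libraries, separate in all samples. Its call was lost without control 2 (adjusted p = 0.0900), ANKO 2 (0.0592) or ANKO 3 (0.0520). Fgf21, the hormone of the fasted liver that fat also makes, had 0, 0 and 1 reads in controls and 11, 70 and 52 reads in ANKO libraries. That is 133 reads against 1, a ratio of 121 with a 95% interval of 21.4 to 4817 that covers counting error only. The test across genes gave an edgeR adjusted p of 0.0512. Angptl6, another secreted factor, was 1.72 to 2.05 CPM against 3.17 to 4.02 CPM (0.93 ± 0.30, adjusted p = 0.310).

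**Figure D2:**
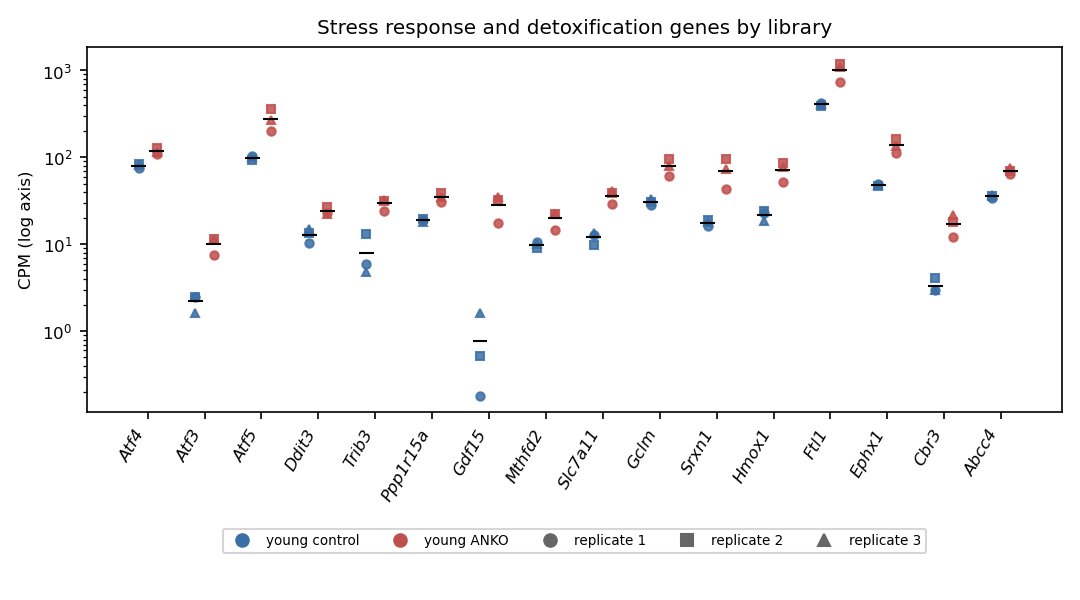
CPM (log axis) of 16 stress response and detoxification genes in each young library, controls in blue and ANKO in red, with a marker shape per replicate number and a black line at each group's mean. All ANKO points lie above all control points of the same gene. The 16 genes were picked, and members with overlapping groups, such as Nfe2l2 and Keap1, are not shown. In the lists, 7 of 21 stress regulators and 13 of 36 NRF2 and detoxification genes were separate above.

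Genes of amino acid supply did not move one way. Of 18 genes of serine, asparagine and one-carbon synthesis, Aldh1l1 fell and none rose, with 5 members separate above and 4 separate below. Aldh1l1, which oxidises formyl-tetrahydrofolate in the cytosol, was 139, 136 and 193 CPM in control fat and 41.5, 49.8 and 53.4 CPM in ANKO libraries (-1.69 ± 0.32, edgeR adjusted p = 0.0400). Its call was lost without any 1 library (highest adjusted p 0.245, without control 3), and its exons overlap Gm15756 and Gm45901. Mthfd2, the mitochondrial folate enzyme, was 9.04 to 10.5 CPM in control fat and 14.5 to 22.6 CPM in ANKO libraries, separate but not past the threshold (1.01 ± 0.28, adjusted p = 0.178). Phgdh and Psat1, the opening steps of serine synthesis, had overlapping groups at -0.09 ± 0.39 and 0.27 ± 0.44. Gpt2, which exchanges amino groups between alanine and glutamate in mitochondria, was 145 to 281 CPM against 63.8 to 77.6 CPM (-1.65 ± 0.42, adjusted p = 0.136), and Cbs, of transsulfuration, 5.79 to 12.2 against 2.26 to 3.21 CPM (-1.67 ± 0.41, adjusted p = 0.118).

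The 15 amino acid transporters gave no call in either direction, and 3 had an unadjusted p under 0.05 on each side. Slc7a11, the cystine importer that feeds glutathione synthesis, was 12.7, 9.82 and 13.5 CPM in control fat and 29.0, 38.9 and 40.6 CPM in ANKO libraries (1.59 ± 0.50, edgeR adjusted p = 0.286). Slc7a10, a neutral amino acid transporter of white adipocytes, was 112, 181 and 212 CPM against 28.9, 35.7 and 35.5 CPM (-2.33 ± 0.48, adjusted p = 0.0539). Slc1a5, a glutamine carrier, was 1029 to 1354 CPM against 396 to 519 CPM (-1.27 ± 0.29, adjusted p = 0.0831). The groups of all these carriers were separate.

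Of 20 cytosolic tRNA synthetases, 18 had a positive fold change, against 51.2% of all genes. Of the 20, 9 were separate above, against 9.11% of all genes, and none separate below. None was called, and the median was 0.12. Aars, for alanine, was 87.6 to 93.6 CPM against 107 to 134 CPM (0.43 ± 0.16). Cars, for cysteine, was 34.0 to 35.6 CPM against 40.9 to 45.0 CPM (0.30 ± 0.10). Chaperones of the endoplasmic reticulum gave no call among 18 genes (median 0.05). Hspa5, its main chaperone, had overlapping groups at 0.25 ± 0.19.

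The NRF2 and detoxification list held the most calls of the 54 lists and was also the largest. Of 36 measured genes 6 rose and none fell, against 0.165% of all genes higher. Shorter lists had 4 of 21 (stress regulators) and 3 of 16 (mast cell markers) called higher. In 13 of the 36 all ANKO libraries lay above all controls and in 2 below, against 9.11% and 9.42% of all genes. The list's median was 0.32 against 0.01 over all genes. The antioxidant element core TGACNNNGC, searched on both strands, was in 14% of windows of tested genes. It was in 14 of 38 windows of this list (36.8%), a share that was not tested. In windows of genes called higher it was in 6 of 41 (14.6%), and of genes called lower in 5 of 38 (13.2%). The window of Gclm is shown whole before its start, and the stretch around the match of Srxn1, 29 bases after its start, with the match in capitals.
Gclm, chr3:122245307-122245556, plus strand: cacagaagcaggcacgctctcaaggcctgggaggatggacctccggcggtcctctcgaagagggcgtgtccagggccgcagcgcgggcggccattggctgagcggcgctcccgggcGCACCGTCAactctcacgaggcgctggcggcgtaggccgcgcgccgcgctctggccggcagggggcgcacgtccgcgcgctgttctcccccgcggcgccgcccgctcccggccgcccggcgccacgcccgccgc
Srxn1, chr2:152105542-152105570, plus strand: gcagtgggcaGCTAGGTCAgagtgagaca
In Gclm the match began 134 bases before the start.

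Ephx1, the microsomal epoxide hydrolase, was 49.4, 47.0 and 47.6 CPM in control fat and 113, 164 and 135 CPM in ANKO libraries. The groups lay far apart and the call held without each library, with adjusted p of at most 0.00680; its exons overlap Gm36961. Cbr3, a carbonyl reductase, was 2.98, 4.08 and 2.95 CPM in control fat and 12.0, 18.1 and 21.8 CPM in ANKO libraries, and its adjusted p stayed at or under 0.0495 in those fits. Abcc4, an exporter of conjugates and cyclic nucleotides, was 34.2, 35.9 and 37.1 CPM in control fat and 63.7, 69.0 and 75.1 CPM in ANKO libraries, a rise of 0.95 ± 0.11 (edgeR adjusted p = 0.00208, at most 0.0185 without 1 library). These 3 genes had the most stable calls of the list.

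Gclm, the modifier subunit of glutamate-cysteine ligase, which begins glutathione synthesis, was 28.0, 30.9 and 33.1 CPM in control fat and 60.9, 97.0 and 79.4 CPM in ANKO libraries. It rose by 1.37 ± 0.20 (edgeR adjusted p = 0.0112), and the call was lost without control 2 (0.0557), control 3 (0.0520) or ANKO 2 (0.0592); its exons overlap Gm17494 and Gm6061. Srxn1, which repairs peroxiredoxins, was 16.4, 18.8 and 18.2 CPM against 42.9, 94.6 and 74.4 CPM (1.99 ± 0.31, adjusted p = 0.0123). Ftl1, the light chain of the iron store ferritin, was 421, 393 and 413 CPM against 740.4, 1200.1 and 1092 CPM (1.31 ± 0.21, adjusted p = 0.0141), with overlapping exons of Gm10252 and Gm22133. Both kept their call without ANKO 1 only, with adjusted p of up to 0.109 for Srxn1 and 0.115 for Ftl1. In all 3 genes ANKO 2 was the highest library and ANKO 1 the lowest of its group.

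Other members of the list did not pass. Hmox1, which degrades heme and was picked after its values were seen, was 18.3 to 24.2 CPM in control fat and 52.5 to 86.7 CPM in ANKO libraries (1.73 ± 0.36, edgeR adjusted p = 0.0545). Nqo1, a quinone reductase that is a standard NRF2 target, was 3.41 to 3.80 CPM against 5.67 to 6.55 CPM (0.73 ± 0.36, adjusted p = 0.727). Nfe2l2, the gene of NRF2, and Keap1 had overlapping groups at 0.16 ± 0.11 and 0.07 ± 0.09.

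Among the called genes that kept their call without each library were Tsku, Maoa and Acot11. Tsku, a secreted proteoglycan, was 12.6, 13.4 and 8.53 CPM in control fat and 55.0, 107 and 68.5 CPM in ANKO libraries, and its adjusted p stayed at or under 0.00445 without any 1 library. Maoa, the mitochondrial enzyme that oxidises monoamines, was 15.4, 14.2 and 14.5 CPM against 58.0, 118 and 120.1 CPM, with an adjusted p of at most 0.0382 in those fits. Acot11, an acyl-CoA thioesterase of thermogenic fat, was 6.55, 6.05 and 7.59 CPM against 24.8, 49.1 and 29.4 CPM, at most 0.0142. Its exons overlap Fam151a. All ANKO libraries of these 3 genes lay above all controls, and the controls of Maoa and Acot11 lay within a narrow range.

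Impdh1, the NAD-dependent first enzyme of guanine nucleotide synthesis, was 54.3, 48.0 and 43.9 CPM in control fat and 83.3, 117 and 92.9 CPM in ANKO libraries. It rose by 1.00 ± 0.14 (edgeR adjusted p = 0.00669) and lost the call without control 3 (0.0683). Maff, a small MAF protein that pairs with NRF2, was 6.15, 8.89 and 6.85 CPM against 19.3, 38.5 and 18.4 CPM (1.80 ± 0.27, adjusted p = 0.0113) and lost the call without control 1 (0.0580) or control 3 (0.102). Ank, a membrane protein that exports ATP and citrate and whose exons overlap Mir7117, was 52.9 to 71.2 CPM against 122 to 219.8 CPM (1.34 ± 0.22, adjusted p = 0.0207). Ero1l, the oxidase that forms disulfide bonds in the endoplasmic reticulum, rose by 0.81 ± 0.14 (adjusted p = 0.0207) and Cyb5r1, an NADH-cytochrome b5 reductase, by 1.07 ± 0.18 (adjusted p = 0.0208). Ank, Ero1l and Cyb5r1 kept their call without ANKO 1 only, with adjusted p of up to 0.115, 0.160 and 0.171.

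A further 7 called genes were higher and belong to no list. Sgpl1, which degrades sphingosine phosphate, was 107 to 120.3 CPM against 159 to 217 CPM (0.76 ± 0.14, edgeR adjusted p = 0.0400). Rdh11, a retinal reductase, was 11.8 to 14.2 CPM against 19.3 to 44.4 CPM (1.22 ± 0.23, adjusted p = 0.0370). Myo5a, a motor of vesicle transport, was 125 to 172 CPM against 211 to 346 CPM (0.95 ± 0.18, adjusted p = 0.0400). Rassf3, a Ras-association protein, rose by 1.12 ± 0.19, Rnf144b, a ubiquitin ligase, by 1.12 ± 0.20, and Bri3, a small membrane protein, by 0.62 ± 0.12 (adjusted p = 0.0233, 0.0301 and 0.0435). Lctl, related to lactase and klotho, with exons that overlap Zwilch, was 8.86, 8.84 and 12.8 CPM against 49.5, 112 and 79.0 CPM. The calls of all 7 were kept without ANKO 1 only, with adjusted p of up to 0.159 for Rassf3 and Rnf144b, 0.206 for Lctl and Rdh11, 0.212 for Myo5a and Sgpl1, and 0.257 for Bri3.

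Of 24 adipocyte markers, Retn and Pck1 fell and none rose, against 0.151% of all genes lower. In 12 of the 24 all ANKO libraries lay below all controls, and the median was -0.78. The summed level of the 24 was 25977, 33575 and 38244 CPM in control fat and 11867, 17004 and 14009 CPM in ANKO libraries, so ANKO 1 was the lowest and no ANKO library reached the lowest control. Adipoq was 753, 976 and 1024 CPM against 264, 410.1 and 383 CPM and missed the threshold (-1.38 ± 0.42, edgeR adjusted p = 0.269). Fabp4, the fatty acid carrier of adipocytes, had overlapping groups (2156 to 4019.9 against 1442 to 2437 CPM), as had Pparg, the master factor of fat cells (105 to 150.2 against 61.2 to 106 CPM).

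Among 17 adipokines, Rbp4 and Retn fell, 7 were separate below and 3 separate above, and the median was -0.21. Rbp4, the blood carrier of retinol, was 107, 88.6 and 188 CPM in control fat and 14.8, 17.9 and 29.4 CPM in ANKO libraries, with the call lost without control 3 (edgeR adjusted p = 0.0683) or ANKO 2 (0.0888). Retn, the hormone resistin, was 478, 396 and 530.0 CPM against 80.9, 121 and 91.0 CPM, with the call lost without control 3 (0.0865), ANKO 1 (0.0610), ANKO 2 (0.0592) or ANKO 3 (0.0874). Cfd, the protease adipsin, was among the most abundant transcripts of the depot, with 5861, 7986 and 7608 CPM in control fat and 1157, 1172 and 1218 CPM in ANKO libraries. Its 2 groups were far apart, and the value of -2.60 ± 0.58 missed the threshold (adjusted p = 0.0840). Cfd passed with the young libraries alone (0.000866), where its SE was 0.15, and in DESeq2 (0.000348). Lep, the hormone leptin, was 108 to 153 CPM against 45.1 to 99.2 CPM (-0.74 ± 0.88, adjusted p = 1.00). Angptl8, a feeding-induced inhibitor of lipoprotein lipase, had higher values in ANKO fat, at 6.56 to 10.8 CPM against 14.9 to 38.0 CPM (1.54 ± 0.36, adjusted p = 0.0987).

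Receptors and signalling genes that set the rate of lipolysis gave 3 lower calls of 22 and no higher call, with 8 separate below, 1 separate above and a median of -0.34. Hcar1, the lactate receptor, was 58.3, 74.5 and 126 CPM in control fat and 11.2, 11.1 and 12.8 CPM in ANKO libraries. Hcar2, the receptor of ketone bodies and niacin, was 14.5, 26.1 and 28.8 CPM against 6.16, 9.28 and 4.43 CPM. Pde3b, the phosphodiesterase through which insulin lowers cyclic AMP, was 279, 365 and 409.6 CPM against 139, 177 and 164 CPM. The calls were lost in several of the fits without 1 library, with edgeR adjusted p of 0.0683 for Hcar1 without control 3, 0.0831 without ANKO 2 and 0.0619 without ANKO 3. Hcar2 and Pde3b kept theirs without control 1 only and reached 0.257 without control 3. All 3 act to restrain lipolysis.

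Other members of the list had lower values in each ANKO library without passing. Adrb3, the beta3-adrenergic receptor, was 296, 257 and 389 CPM in control fat and 98.2, 161 and 144 CPM in ANKO libraries (-1.22 ± 0.42, edgeR adjusted p = 0.373). Adcy5, an adenylyl cyclase, was 143 to 301 CPM against 37.3 to 52.7 CPM (-2.21 ± 0.45, adjusted p = 0.0512). Ffar2 and Ffar4, receptors of short-chain and long-chain fatty acids, were at -2.30 ± 0.50 and -1.53 ± 0.34 (adjusted p = 0.0697 and 0.0758). The groups of these 4 genes did not overlap.

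None of 19 genes of lipid droplets and lipolysis was called, and the median was -0.57 with 6 separate below and 3 separate above. Plin1, the droplet coat of mature adipocytes, was 907, 1003 and 1255 CPM in control fat and 354, 543 and 445 CPM in ANKO libraries (-1.24 ± 0.36, edgeR adjusted p = 0.227). Plin2, the coat found on droplets of many cell types, was 166, 145 and 179.6 CPM against 421, 909.9 and 653 CPM (2.02 ± 0.55, adjusted p = 0.183). Plin3, a related coat, was 39.7 to 47.1 CPM against 54.5 to 69.7 CPM (0.49 ± 0.16, adjusted p = 0.306). Plin1 lay lower and Plin2 and Plin3 higher in every ANKO library, and none of these differences passed.

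Of 17 genes of triglyceride synthesis, Pck1 and Gpat3 fell and none rose (median -0.33). Pck1, which makes glycerol backbones from pyruvate, was 1149, 2712 and 2399.9 CPM in control fat and 269.6, 291 and 385 CPM in ANKO libraries. Gpat3, an acyltransferase of the first step, was 73.8, 71.5 and 117 CPM against 20.1, 20.7 and 28.4 CPM (-1.92 ± 0.38, edgeR adjusted p = 0.0442). Pck1 kept its call without control 1 only (up to 0.161, without ANKO 2) and Gpat3 in none of the fits (up to 0.257, without control 3); exons of Gpat3 overlap 4930458D05Rik and Gm42987. Mogat2, an acyltransferase of monoacylglycerol, had higher values in ANKO fat, at 2.08, 1.03 and 1.26 CPM against 9.13, 22.5 and 13.1 CPM (3.34 ± 0.86, adjusted p = 0.142).

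**Figure D3:**
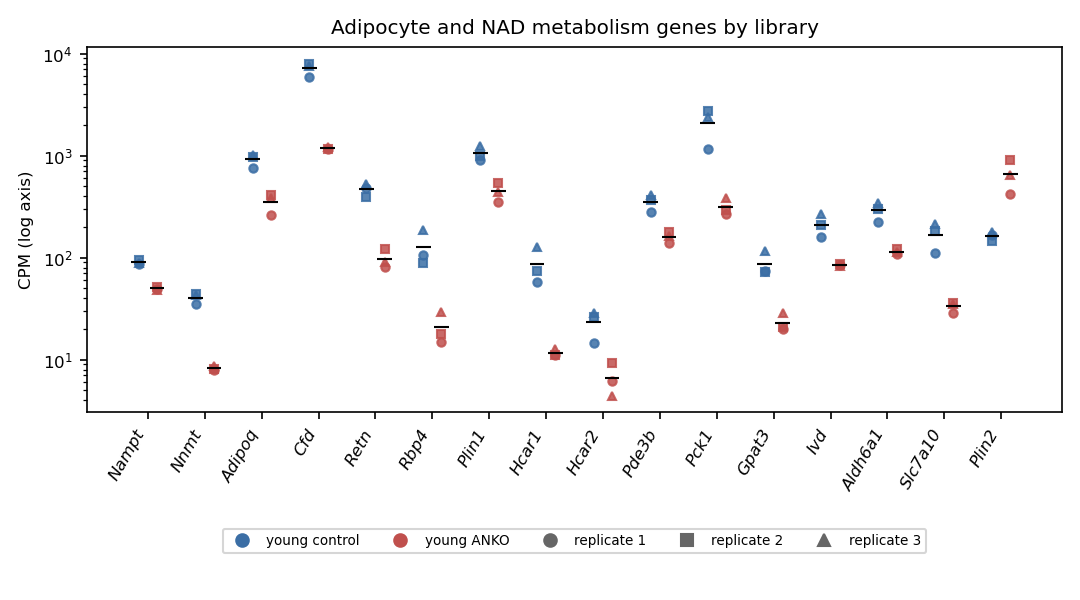
CPM (log axis) of 16 adipocyte and NAD metabolism genes in each young library, controls in blue and ANKO in red, with a marker shape per replicate number and a black line at each group's mean. ANKO points lie below control points in 15 genes, and above them in Plin2. The 16 genes were picked, and Fabp4 and Pparg, whose groups overlapped, are not shown.

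Branched-chain amino acid catabolism had the largest share of separate members of the 54 lists: in 16 of 20 genes all ANKO libraries lay below all controls, against 9.42% of all genes. The median was -0.68, 14 members had an unadjusted p under 0.05 and 1 was called. Ivd, the dehydrogenase of leucine breakdown, was 158, 208 and 266 CPM in control fat and 83.8, 86.5 and 83.6 CPM in ANKO libraries, a log2 fold change of -1.31 ± 0.25 (edgeR adjusted p = 0.0400). Its call was kept without control 1 only and reached 0.262 without control 3. Mccc1 and Mccc2, the subunits of the next carboxylase, were at -1.03 ± 0.22 and -1.18 ± 0.27 (adjusted p = 0.0661 and 0.0883). Bcat2, the mitochondrial transaminase that starts the pathway, was 88.2, 131 and 162 CPM against 57.4, 60.7 and 61.9 CPM (-1.08 ± 0.26, adjusted p = 0.113). Aldh6a1, of valine breakdown, was 226, 303 and 343 CPM against 109, 121 and 114 CPM (-1.34 ± 0.34, adjusted p = 0.133). Bcat1, the cytosolic transaminase, had overlapping groups at 0.36 ± 0.65. The adipocyte marker sum, given above, was lower in the same libraries, and its part in this difference was not tested.

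In fatty acid oxidation none of 22 genes was called, 8 were separate below and 1 above, and the median was -0.42. Echs1, the hydratase of beta-oxidation, was 109, 118 and 169.8 CPM in control fat and 65.8, 88.1 and 69.8 CPM in ANKO libraries (-0.83 ± 0.26, edgeR adjusted p = 0.299). Among 22 genes of insulin signalling, none was called, 9 were separate below and 1 above (median -0.24). Irs1, the docking protein of the insulin receptor, was 274 to 339 CPM against 137 to 191 CPM (-0.78 ± 0.26, adjusted p = 0.334), and the receptor gene Insr was 234 to 300.4 CPM against 184 to 215 CPM. None of 22 genes of the TCA cycle and none of 33 nuclear genes of complex I was called, with medians of -0.11 and -0.07. The 13 mitochondrially encoded subunits had a median of 0.18, with overlapping groups in all 13.

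Of 19 genes of de novo lipogenesis 1 rose, 3 were separate above and none below, and the median was 0.22. List medians of the single libraries overlapped, at 0.27, -0.52 and 0.40 in controls 1, 2 and 3 and -0.18, 0.76 and 0.16 in ANKO 1, 2 and 3. The gene that rose was Mid1ip1, an activator of acetyl-CoA carboxylase on the X chromosome, with 18.2, 11.9 and 15.3 CPM in control fat and 28.7, 60.4 and 39.4 CPM in ANKO libraries (1.50 ± 0.28, edgeR adjusted p = 0.0357). It kept its call without ANKO 1 only (up to 0.204, without control 3), and its exons overlap Gm14493. Acly, which makes cytosolic acetyl-CoA, was 2222, 465 and 1584 CPM against 1675, 3993 and 2182 CPM, with control 2 the lowest and ANKO 2 the highest of the 6. Elovl3, an elongase of thermogenic fat, was 0.181, 0.413 and 0.211 CPM against 4.91, 9.42 and 2.79 CPM (4.39 ± 0.96, adjusted p = 0.0699).

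Glycolysis had no call among 25 genes, with 8 separate above, 2 separate below and a median of 0.31. Gpi1, the glucose phosphate isomerase, was 210.2, 175 and 251 CPM in control fat and 332, 469.9 and 332 CPM in ANKO libraries (0.83 ± 0.21, edgeR adjusted p = 0.139). Pfkfb3, which activates phosphofructokinase, was 667 to 919.8 CPM against 328 to 349 CPM (-1.26 ± 0.33, adjusted p = 0.147). Of 22 thermogenic genes Acot11 was the only call, with 8 separate above, 2 separate below and a median of 0.37. Fold changes were positive in 14 and negative in 8. Ppargc1a and Slc36a2, members with lower values in ANKO fat, were at -0.54 and -0.74 in DESeq2. Ucp1, the uncoupling protein of brown and beige fat, was 0.00, 1.71 and 1.26 CPM against 2.67, 8.03 and 5.19 CPM (2.43 ± 1.68, adjusted p = 0.949). Kcnk3, a potassium channel of thermogenic adipocytes, was 44.5 to 80.7 CPM against 114 to 217 CPM (1.38 ± 0.37, adjusted p = 0.177).

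**Figure D4:**
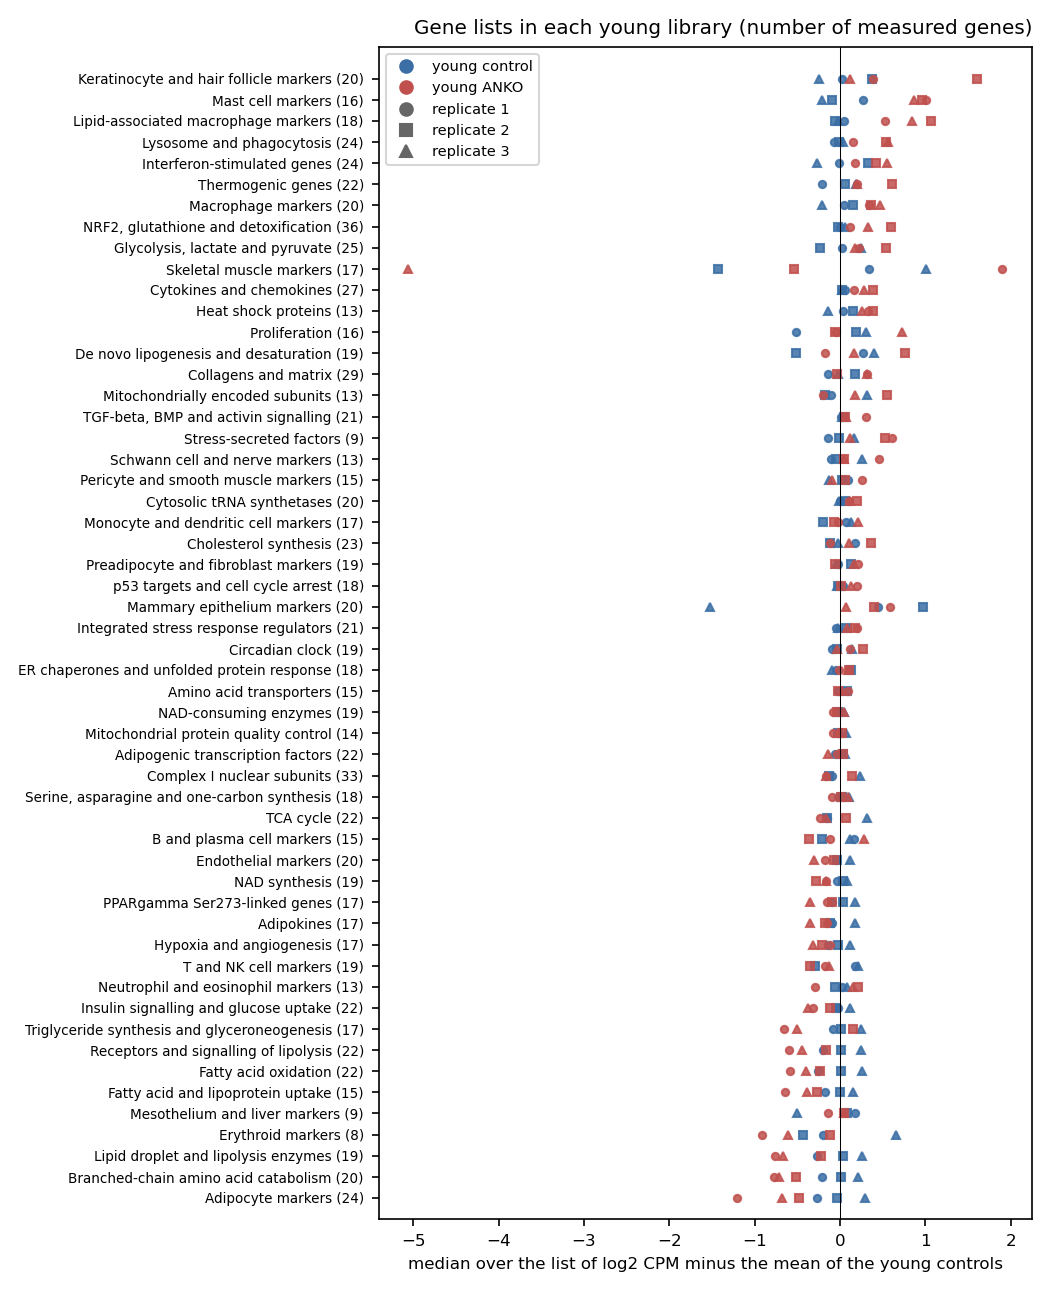
For each of 54 gene lists and each young library, the median over the list of log2 CPM minus the mean of the young controls (horizontal axis), controls in blue and ANKO in red, with a marker shape per replicate number and the number of measured genes in brackets. Adipocyte markers lie at -1.21, -0.48 and -0.68 and branched-chain amino acid catabolism at -0.78, -0.52 and -0.72 in ANKO 1, 2 and 3, all below every control library, while skeletal muscle markers spread from -5.06 to 1.90 within the ANKO group.

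Several lower genes lie outside the lists. Opn3, a light-sensing receptor of adipocytes, was 22.7, 25.6 and 28.7 CPM in control fat and 6.98, 7.27 and 8.51 CPM in ANKO libraries. Its log2 fold change was -1.76 ± 0.24 (edgeR adjusted p = 0.00669), and it lost the call without control 3 (0.0545) or ANKO 2 (0.0592), and overlaps exons of Chml. Chst1, a sulfotransferase of keratan sulfate, was 124, 159.6 and 239 CPM against 45.6, 43.3 and 42.5 CPM (-1.99 ± 0.30, adjusted p = 0.0113). Slc1a3, a glutamate transporter, was 127, 219.9 and 226 CPM against 45.7, 45.8 and 47.8 CPM (-2.04 ± 0.32, adjusted p = 0.0141). For both, the 3 ANKO libraries agreed closely while the controls were spread. Chst1 lost its call without control 3 (0.0865), ANKO 2 (0.0831) or ANKO 3 (0.0821), and Slc1a3 kept it without control 1 only (up to 0.102, without control 3).

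Cnr1, the cannabinoid receptor CB1, was 13.1, 11.9 and 10.6 CPM in control fat and 2.89, 3.84 and 3.08 CPM in ANKO libraries (-1.86 ± 0.36, edgeR adjusted p = 0.0429). Kcnk2, a potassium channel, was 12.2, 11.4 and 24.3 CPM against 2.80, 5.31 and 3.94 CPM (-1.99 ± 0.39, adjusted p = 0.0429). Sfxn1, which carries serine into mitochondria, was 105, 143 and 172 CPM against 61.2, 79.5 and 61.8 CPM (-1.05 ± 0.20, adjusted p = 0.0429). Ces1f, a carboxylesterase, was 73.2, 113 and 148 CPM against 19.5, 25.3 and 31.6 CPM (-2.13 ± 0.38, adjusted p = 0.0292), and reads of this gene family may be shared between near-identical members. Cdkn2c, a cell cycle inhibitor, fell by 1.40 ± 0.26 and Arl4a, a small GTPase, by 1.21 ± 0.24 on the log2 scale (adjusted p = 0.0357 and 0.0435). Cnr1, Kcnk2, Cdkn2c and Arl4a lost their call in each fit without 1 library (up to 0.178, 0.257, 0.215 and 0.257), and Ces1f and Sfxn1 kept theirs without control 1 only (up to 0.176 and 0.262).

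Spon1, a secreted matrix protein, was 159.6, 301 and 173 CPM in control fat and 60.4, 34.3 and 44.3 CPM in ANKO libraries and was the single call among 29 collagen and matrix genes; it lost the call without ANKO 2 (edgeR adjusted p = 0.0592) or ANKO 3 (0.0530). Col1a1, the main fibrillar collagen, had overlapping groups of 1696 to 2332 CPM and 2039 to 3664 CPM. The remaining lower calls were smaller or of genes with little known function: Pex3, of peroxisome assembly, was at -0.61 ± 0.12 and Ppm1m, a phosphatase, at -0.72 ± 0.13 (adjusted p = 0.0480 and 0.0299), and both were lost without any 1 library. Gm16168, a predicted gene, was 12.0, 12.4 and 16.2 CPM against 1.21, 1.92 and 1.83 CPM (-3.03 ± 0.51, adjusted p = 0.0208, kept without control 1 only, up to 0.116).

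The remaining called genes are given by value, with Zfp949 further below. 9630013D21Rik was lower, at -1.98 both in DESeq2 and with the young libraries alone. Its edgeR adjusted p in the main fit was 0.00330, and it was at most 0.0472 without 1 library. B3galt2, a galactosyltransferase with exons that overlap Cdc73, was 134 to 191 CPM in control fat and 50.7 to 62.9 CPM in ANKO fat (-1.48 ± 0.24, edgeR adjusted p = 0.0141), and lost the call without control 3 (0.109), ANKO 1 (0.0614), ANKO 2 (0.0999) or ANKO 3 (0.0567). Med16, a subunit of the Mediator complex, was 75.8 to 106 CPM against 46.5 to 52.0 CPM (-0.89 ± 0.17), and kept the call without control 1 only (up to 0.186). Plppr3, a lipid phosphatase-related protein, had a log2 fold change of -1.12 ± 0.22 and lost the call without controls 2 and 3 and ANKO 2 and 3 (up to 0.239). D3Ertd751e, Gm15519, Proca1 and 4930412C18Rik were at -1.15, -1.51, -1.03 and -2.18, and each lost the call without any 1 library (up to 0.206, 0.186, 0.258 and 0.257). Gm12164 and Gm13453, predicted genes, were higher at 1.69 and 1.25, and kept the call without ANKO 1 only and without control 1 only (up to 0.116 and 0.206).

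Lipid-associated macrophages take up and digest lipid in fat. Of 18 measured markers of these cells, Gpnmb and Lgals3 rose and none fell, against 0.165% of all genes higher. In 12 of the 18 the groups were separate above and in 1 below, against 9.11% and 9.42% of all genes, and the median was 0.77. Gpnmb, a lysosomal glycoprotein, was 7.82, 7.34 and 10.8 CPM in control fat and 43.6, 93.1 and 114 CPM in ANKO libraries. Lgals3, the lectin galectin-3, was 63.8, 58.9 and 46.6 CPM against 111, 204 and 197 CPM, a rise of 1.60 ± 0.29 (edgeR adjusted p = 0.0301). Both kept their call without ANKO 1 only, with adjusted p of up to 0.241 and 0.231, each without control 3. Trem2, the receptor that defines these cells, was 1.72, 1.65 and 0.579 CPM against 5.94, 7.76 and 15.2 CPM (2.86 ± 0.67, adjusted p = 0.101). Atp6v0d2, a proton pump subunit, was 0.362, 0.724 and 0.369 CPM against 3.10, 9.06 and 15.9 CPM (4.26 ± 0.88, adjusted p = 0.0566), and Mmp12, the macrophage elastase, 0.737 to 1.36 CPM against 9.09 to 34.7 CPM (4.36 ± 1.34, adjusted p = 0.277). The summed level of the 18 did not separate the groups, at 5846 to 7109.9 CPM in control fat and 4959 to 7555 CPM in ANKO libraries, and Lpl, an abundant member that adipocytes also make, was lower in ANKO fat at -0.56 ± 0.44.

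General macrophage markers gave no call among 20, with 11 separate above, against 9.11% of all genes, and a median of 0.34. Adgre1, a surface receptor of mature macrophages, was 20.8, 20.7 and 21.4 CPM in control fat and 37.8, 38.1 and 50.4 CPM in ANKO libraries (1.01 ± 0.27, edgeR adjusted p = 0.173). Their sum was 992 to 1182 CPM against 1337 to 1572 CPM, without overlap. Of 24 lysosomal genes 14 were separate above and none below, against 9.11% and 9.42% of all genes. The 2 calls were again Gpnmb and Lgals3. Npc1, which exports cholesterol from lysosomes, was 68.7 to 82.6 CPM against 95.1 to 111 CPM (0.46 ± 0.10, adjusted p = 0.0617).

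Mast cell transcripts gave 3 higher calls of 16 measured markers, against 0.165% of all genes. In 7 of the 16 the groups were separate above, against 9.11% of all genes, and the median was 1.04. Mcpt4, a chymase, was 10.5, 7.70 and 8.06 CPM in control fat and 25.2, 21.3 and 24.5 CPM in ANKO libraries. Tpsb2, a tryptase, was 9.76, 8.06 and 6.74 CPM against 21.8, 22.8 and 17.2 CPM, and Cma1, another chymase, 6.33, 4.86 and 4.69 CPM against 16.1, 12.0 and 13.8 CPM. Tpsb2 lost the call without control 2 (edgeR adjusted p = 0.0744), control 3 (0.113) or ANKO 2 (0.0742), and Mcpt4 and Cma1 kept theirs without control 1 only (up to 0.159 and 0.160). Kit, the growth factor receptor of mast cells that mammary epithelium also expresses, had overlapping groups at 43.7 to 111 CPM and 84.9 to 141 CPM, and Fcer1a, the IgE receptor chain, was 0.00 to 0.385 CPM over the 6 libraries. The sum of the 16 markers was 97.5 to 164 CPM in control fat and 186 to 248 CPM in ANKO libraries.

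Among 27 cytokines and chemokines Cxcl11 fell and none rose (median 0.27). Cxcl11, an interferon-induced chemokine whose exons overlap Gm2673, was 8.54, 11.1 and 12.2 CPM in control fat and 1.72, 2.41 and 1.83 CPM in ANKO libraries, and lost its call without any 1 library (edgeR adjusted p up to 0.165). Cxcl10, a related chemokine, was 11.3 to 13.9 CPM against 6.46 to 7.99 CPM (-0.77 ± 0.40, adjusted p = 0.771). Of 24 interferon-stimulated genes none was called, 7 were separate above and 1 below, and the median was 0.39, with overlapping list medians of the single libraries. Rsad2, the antiviral protein viperin, was 12.9 to 20.3 CPM against 31.2 to 51.0 CPM (1.43 ± 0.31, adjusted p = 0.0689). Tnf and Il1b, classical inflammatory cytokines, had overlapping groups at -0.44 ± 0.57 and -0.30 ± 0.70.

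Markers of the other cell types gave no call. Medians were -0.17 for 20 endothelial, 0.10 for 19 preadipocyte, -0.23 for 19 T and NK cell and -0.11 for 15 B cell markers. Summed preadipocyte markers were 7179.7 to 8796 CPM in control fat and 6186 to 7627 CPM in ANKO libraries, with overlap. The keratinocyte list had the highest median of the 54, 1.19, and 7 unadjusted p under 0.05, but Krt1, of the upper epidermis, was 0.474, 9.33 and 0.0962 CPM in ANKO 1, 2 and 3 and 0.0904 to 0.310 CPM in controls. ANKO 2 stood apart from the other 5 libraries for this gene.

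The 67 genes were set beside the comparison of old ANKO with old control libraries, which share no library with the young comparison but share its estimate of spread. There, 2337 of 21206 genes passed (11.0%), 633 higher (2.99%) and 1704 lower (8.04%). Of the 32 genes lower in young ANKO fat, 30 were also called lower in old ANKO fat, and of the 35 higher genes 9 were also called higher. None was called in the opposite direction. The 2 lower genes without a call in old mice were Plppr3 and the targeted gene: Nampt was at -0.85 ± 0.17 in young and -0.35 ± 0.13 in old mice (edgeR adjusted p = 0.0945 in old mice), and the test of the difference gave -0.50 ± 0.21 (adjusted p = 0.463). Rbp4 was at -2.62 ± 0.39 in young and -4.26 ± 0.33 in old mice, Pck1 at -2.73 ± 0.47 and -2.84 ± 0.37, and Ivd at -1.31 ± 0.25 and -1.48 ± 0.19. Mcpt4 was at 1.43 ± 0.24 and 1.69 ± 0.18.

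Several stress and detoxification genes had smaller values in old mice. Atf3 was at 2.21 ± 0.37 in young and 0.58 ± 0.27 in old mice, Gclm at 1.37 ± 0.20 and 0.05 ± 0.15, and Ephx1 at 1.52 ± 0.15 and 0.35 ± 0.11. Tests of the difference itself did not pass for these genes (edgeR adjusted p = 0.226 for Atf3, 0.0768 for Gclm and 0.0577 for Ephx1), nor for Tsku (difference 1.93 ± 0.32, adjusted p = 0.0632) or any other of the 67. A single gene of the 21206 passed that test (0.00472%), the DNA damage and stress gene Gadd45a, which was named after its values were seen (chromosome 6, 67035096 to 67037457, exons overlapping E230016M11Rik). Its call was lost with the stricter filter (0.0560) and without each young library but ANKO 1 (0.0688 to 0.198). Of the 67 genes, 28 passed the test of the difference in DESeq2, 2 with library totals, 4 without a filter, 14 without ANKO 1 and 1 without control 2. Zfp949, a zinc finger gene called in young mice and kept without each library, was at 1.44 ± 0.13 in young and 1.25 ± 0.10 in old mice.

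**Figure D5:**
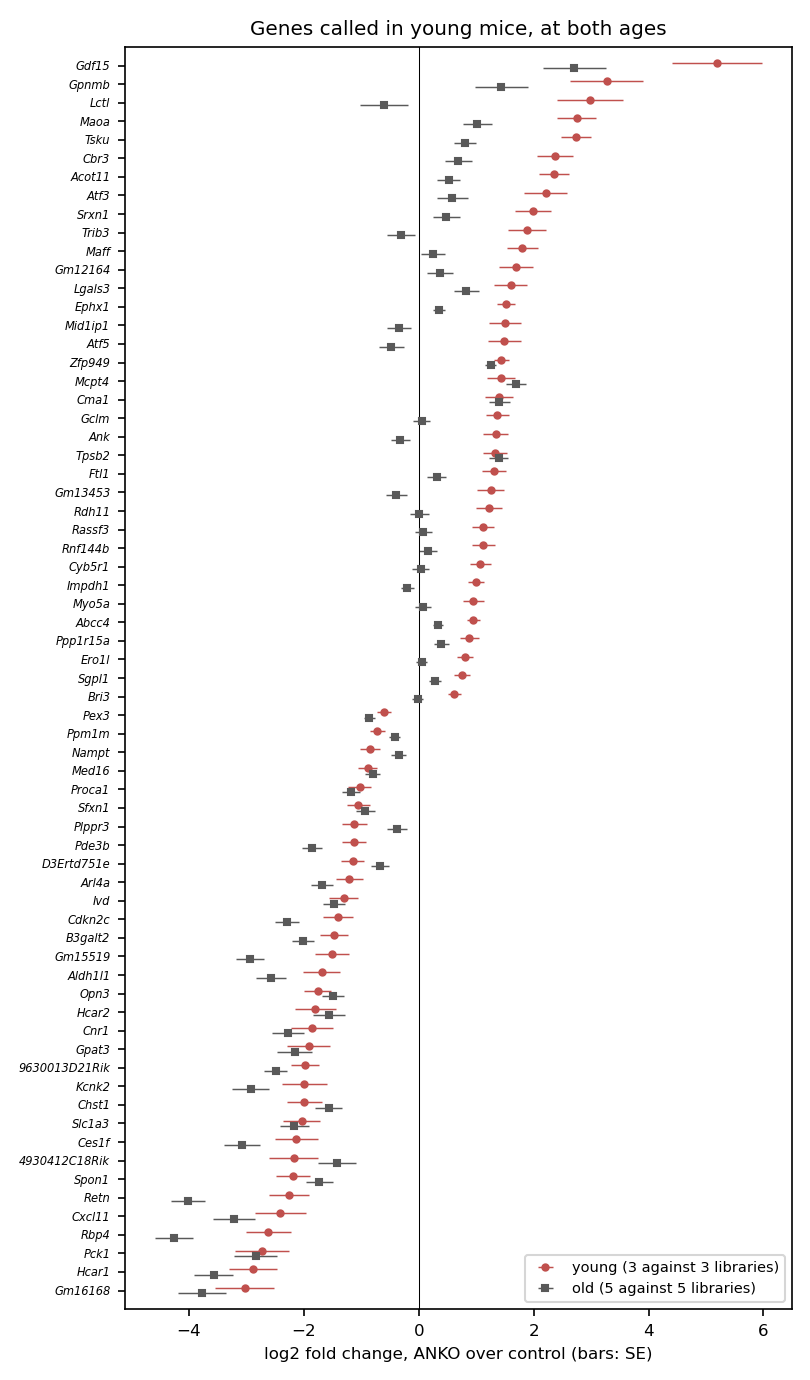
Log2 fold change of ANKO over control with SE bars for the 67 genes called in young mice, in young mice (red circles, 3 against 3 libraries) and old mice (grey squares, 5 against 5 libraries). Most lower genes lie at or below their young value in old mice, while most higher genes lie nearer 0 in old mice.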

How the data were processed

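As deposited by the authors, the data are unnormalized counts by gene symbol, in 1 table of 16 libraries. Per the submitters' processing notes, STAR 2.0.4b, Subread and featureCounts 1.45 were used with GRCm38. The annotation release, strand setting and handling of reads that match several genes were not given in the sources used here. Overlapping genes and close families are therefore uncertain. Exons of 20 of the 67 called genes overlap those of other genes, and not all of these genes are marked above. Of 40757 lines, 322 full repeats and 113 further lines of a repeated symbol were dropped; 24 symbols turned into dates held 0.126% of reads. RNA was total RNA from flash-frozen fat, depleted with Ribo-Zero Gold.

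Here the counts were scaled by TMM, filtered by edgeR's filterByExpr and fitted in one quasi-likelihood model of 4 groups over 16 libraries (edgeR 4.0.16, limma 3.58.1, R 4.3.3), with contrasts for young, old and their difference and Benjamini-Hochberg adjustment over 21206 genes at 0.05. SE is the fold change divided by the root of F. All adjusted p-values are from this test unless DESeq2 1.42.0 is named. On simulated data (20886 genes) the test recovered 37.0% of 2-fold and 78.0% of 4-fold changes with 5 false calls. Changes were planted only in genes above a floor of mean CPM. Apart from them all groups shared a mean, and the spread was that of the fit. Shared differences between libraries, as of muscle markers, were not simulated, so these figures may not hold for the real libraries. Alternatives were other scalings and filters, DESeq2, the young libraries alone, a replicate block and leaving out each young library.

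The naming rule covered Nampt, the genes past the threshold, and in each list the first 3 measured members and up to 6 with the smallest p. Of the genes under this rule that were not called, only a part is described, with no further rule for the choice. Genes outside the rule are said to be named or picked after their values were seen. The 54 lists (975 of 978 genes matched) and the comparison were chosen with earlier results of these data known. Positions are from GENCODE M21 by symbol.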

Additional observations from a re-analysis of the deposited data

Results flagged for a closer look

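The effect of Nampt loss differed between the ages for 1 of 21206 genes by the test of the difference itself, Gadd45a, which is induced by DNA damage and other stress. It was 7.77, 6.46 and 5.85 CPM in young control fat and 12.5, 17.0 and 14.8 CPM in young ANKO fat, and 10.5 to 19.7 CPM in old control fat and 5.65 to 8.88 CPM in old ANKO fat. All young ANKO libraries lay above their controls and all old ANKO libraries below theirs. The log2 fold change was 1.14 ± 0.23 in young mice (edgeR adjusted p = 0.0512) and -1.06 ± 0.18 in old mice (adjusted p = 0.00170). The difference was 2.20 ± 0.29 (adjusted p = 0.0400). The call was lost with the stricter filter (0.0560), with the replicate block (0.0906), and without control 1 (0.0688), control 2 (0.139), control 3 (0.155), ANKO 2 (0.198) or ANKO 3 (0.130). It was kept without ANKO 1 (0.0206), with library totals (0.0110), without a filter (0.0278), with RLE size factors (0.0432) and in DESeq2 (3.73e-08).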

How the results depend on the processing

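The number of called genes depended on the fit. It was 138 (65 higher, 73 lower) with library totals, 347 (151 and 196) with DESeq2 and 306 (94 and 212, of 19269 tested) with the young libraries alone, of which 66, 67 and 51 were among the 67. Without 1 young library it was 10 to 48 (8 to 40 higher, 1 to 19 lower), lowest without control 3 or ANKO 2. Nampt stayed at -0.85 with the stricter filter and with the replicate block but missed the threshold (edgeR adjusted p = 0.0567 and 0.0733), and lay between -0.87 and -0.80 without 1 library. The age difference was called for 11 genes with library totals (11 higher), 7 without a filter (7 higher), 0 with the stricter filter, 274 with DESeq2 (244 higher, 30 lower) and 0 to 51 without 1 library (0 to 50 higher, 0 to 1 lower). The cause of these changes was not tested. With the replicate number as a block, 37 genes were called (20 higher, 17 lower), 26 of them among the 67, and 0 for the age difference. Same-numbered libraries correlated at 0.05, -0.03 and -0.04 in their deviations, so the numbers were not taken to pair the samples, and not every sample correlated best with its own number. Values of genes that were not called changed sign without 1 library: Bcat1 ranged from -0.03 to 0.61, Fcer1a from -2.02 to 0.27, Il1b from -0.66 to 0.03, Nmnat1 from -0.30 to 0.06, Phgdh from -0.19 to 0.08 and Sirt3 from -0.07 to 0.19. All 67 called genes kept their sign in every fit run.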

Other observations

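Of 21 genes of TGF-beta, BMP and activin signalling, Gdf15 was the single call, with 5 separate above and 4 below. The lists that follow gave no call. Of 18 p53 targets and genes of cell cycle arrest, 15 had a positive fold change and 4 were separate above, with a median of 0.09. Cdkn1a, the cell cycle inhibitor p21, was 23.7, 29.9 and 21.9 CPM in control fat and 39.5, 56.3 and 43.0 CPM in ANKO fat (0.88 ± 0.35, edgeR adjusted p = 0.536), and Phlda3, an inhibitor of AKT, was 126, 90.9 and 104 CPM against 149, 275 and 189 CPM (0.93 ± 0.30, adjusted p = 0.316). Of 13 heat shock genes, 12 had a positive fold change and 5 were separate above, with a median of 0.24. Hspb8, a small heat shock protein, was 25.4 to 44.3 CPM against 79.6 to 123 CPM (1.42 ± 0.45, adjusted p = 0.304).

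Among 17 genes of hypoxia and angiogenesis, 4 were separate below and none above. Bnip3, a mitophagy receptor, was 89.8, 139 and 125 CPM in control fat and 40.7, 42.3 and 38.9 CPM in ANKO fat (-1.54 ± 0.42, edgeR adjusted p = 0.185), and Angpt1, a vascular growth factor, lay below every control in all ANKO libraries (-1.47 ± 0.33, adjusted p = 0.0784). Of 17 genes linked to phosphorylation of PPARgamma at Ser273, 6 were separate below and 1 above. Car3, the carbonic anhydrase of fat, was 5172, 6912 and 7967 CPM against 2612, 1905 and 2186 CPM (-1.58 ± 0.50, adjusted p = 0.299), and Peg10, an imprinted gene derived from a retroelement, had higher values in ANKO fat, at 10.5 to 11.0 CPM against 27.0 to 51.3 CPM (1.99 ± 0.59, adjusted p = 0.246).

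In the fit of the young libraries alone, where 1.10% of genes were lower and 0.488% higher, 8 of 20 genes of branched-chain amino acid catabolism were called lower and 8 of 18 markers of lipid-associated macrophages higher. DESeq2, with 0.924% lower and 0.712% higher, called 5 and 6 of them.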
